A study of Homo sapiens with 10 samples.

Results

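Autophagy genes encode the machinery that wraps cytoplasm in a double membrane and delivers it to the lysosome. The 36 genes described here were chosen by symbol from a fixed list of core autophagy factors, and all 36 were found among the 27142 genes of the deposited expression table. They were measured in 697 cells, an established human pre-B acute lymphoblastic leukaemia line. The RNA-seq part of the study holds 4 libraries of the parental line, 2 from control cells (Ctrl) and 2 from cells given TPA (12-O-tetradecanoylphorbol-13-acetate), a phorbol ester that activates protein kinase C. The dose was 0.5 µg/ml TPA, and the exposure is stated only as a range from 0 to 24 h, so the time behind the TPA libraries is not known. All cells were grown in RPMI1640 with fetal bovine serum, and the labels record no other treatment of the RNA samples. The other 6 samples of the series (ChIP-seq and input DNA) were not analysed here.

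In background terms, autophagy starts when the ULK kinase complex is released from inhibition by mTORC1, a kinase complex that senses nutrients. A lipid kinase complex built around Beclin 1 then marks the forming membrane with phosphatidylinositol 3-phosphate. ATG9 vesicles and the lipid transfer protein ATG2 supply membrane, and a pair of ubiquitin-like conjugation systems attach small proteins of the ATG8 family (LC3 and GABARAP) to it. Cargo receptors such as p62 (SQSTM1) bind both the cargo and the ATG8 proteins, and the closed autophagosome fuses with a lysosome. In B-lineage cells the pathway is best known for its part in the survival of memory B cells and plasma cells.

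The unit of every level is RPKM, in which read numbers are divided by transcript length and library size, so levels can be compared between genes. The summed RPKM of a library lay between 349438 and 388846. Read numbers are unknown, and relative depth was read from the spacing of low values, which put the other libraries at 91.3% to 97.7% of the depth of control replicate 1. All 10 fixed markers of the pre-B lymphoid type were at 1 RPKM or more, with a summed level of 2127 to 2135 RPKM in control and 1198 to 1360 RPKM with TPA. The summed levels of the 4 T-cell markers in the table (0 to 0.017 RPKM, CD3D and CD3E listed at 0 in every library) and the 5 erythroid markers (0.027 to 0.15 RPKM) were near 0. The 5 myeloid markers summed to 0.667 and 0.95 RPKM in control and 3.13 and 3.85 RPKM with TPA, of which CSF1R alone had 2.93 and 3.66 RPKM with TPA, and the part of these markers in the results was not tested. These are bulk libraries, so a lower value cannot be told apart between fewer cells with a transcript and less of it per cell. No label says that replicates were separate cultures, so p-values measure only the spread between these libraries, which may be technical.

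Levels of 25 of the autophagy genes tested were higher with TPA and of 9 lower, most by less than 2-fold. Of the 36 genes, 34 passed the filter on low values (1 RPKM or more in 2 or more libraries). They were part of a limma fit to log2(RPKM + 1) of all 12159 genes that passed, over which p-values received a Benjamini-Hochberg adjustment. At an adjusted p under 0.05, 19 rose and 4 fell, and 11 did not pass. Over all genes tested, 28.4% rose and 29.8% fell, 58.2% in either direction. The median log2 fold change of the 34 genes was 0.44, beside -0.02 over all genes tested. ULK2 and OPTN reached the filter only through their TPA libraries, and of the 32 genes with at least 1 RPKM in both controls, 17 rose and 4 fell.

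Leaving out control replicate 1 gave 8 members that rose, and leaving out control replicate 2 gave 11. The number was 17 when TPA replicate 1 was dropped and 15 when TPA replicate 2 was, and 4 or 5 members fell in these 4 fits. In the fits without a control replicate limma's prior degrees of freedom were infinite, so their p-values, here and for single genes, cannot be set against the reported ones. The median log2 fold change of the members was 0.40 and 0.42 in those 2 fits. The groups did not overlap for 21 genes that were higher with TPA and 6 that were lower, where 38.8% and 41.0% of all genes tested were higher and lower without overlap (79.8% together). OPTN and NBR1 were the only members that rose at least 2-fold on the log2(RPKM + 1) scale, and ATG4D the only one that fell as much, against 11.7% and 11.5% of all genes tested. The added 1 RPKM shrinks the fold change of genes at low levels.

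**Figure D1:**
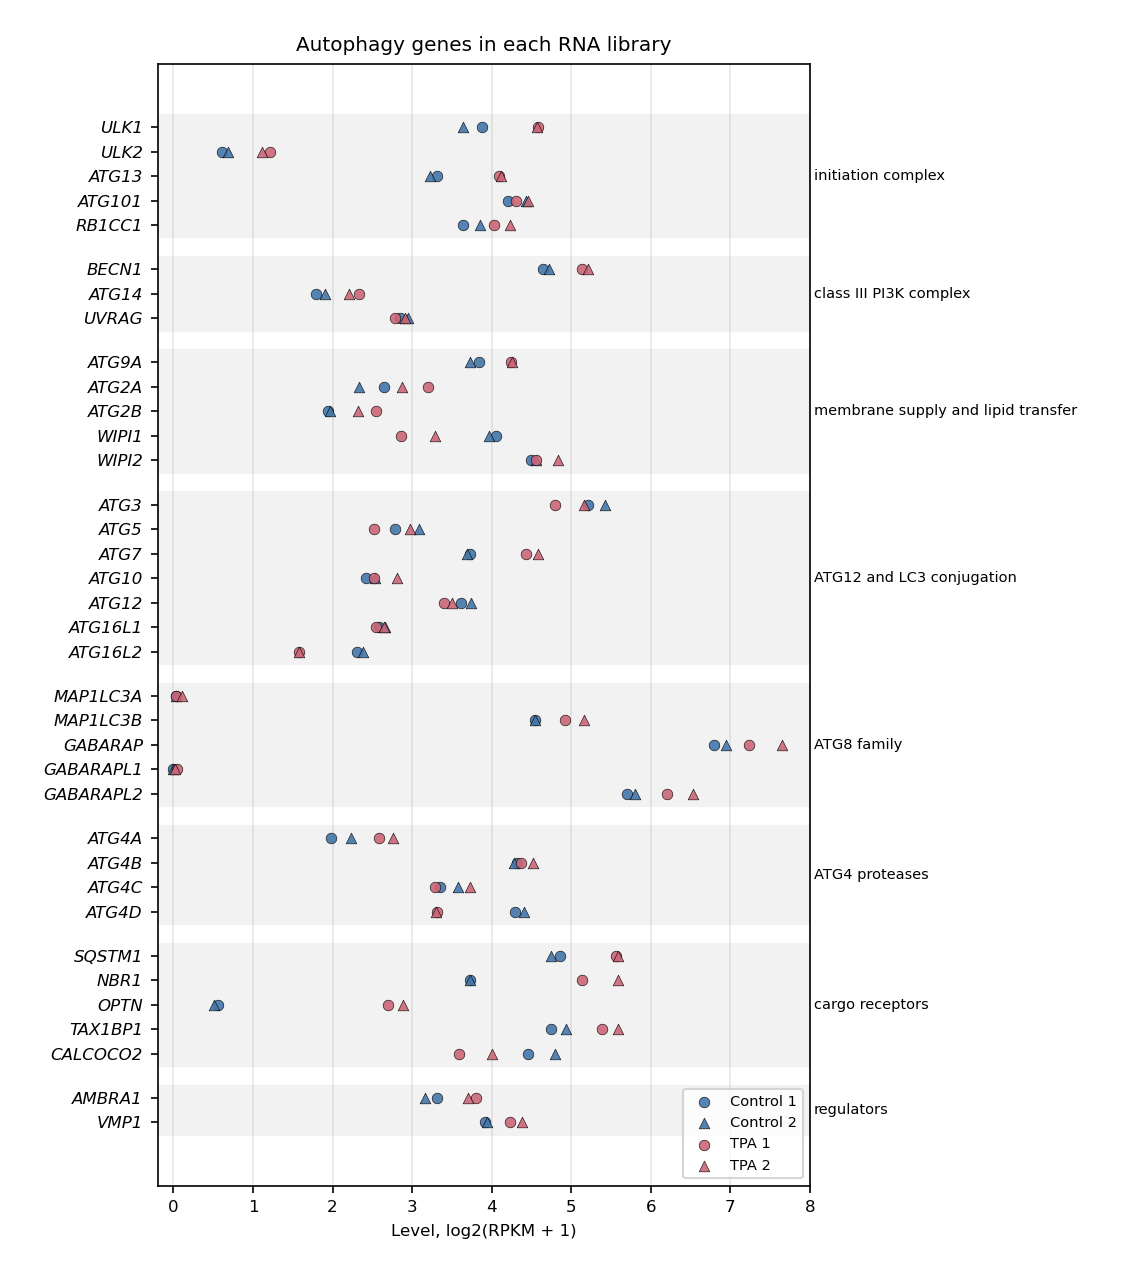
Level of each of the 36 autophagy genes on the log2(RPKM + 1) scale (horizontal axis) in the 2 control libraries (blue) and the 2 TPA libraries (red), grouped by role, with circles for replicate 1 and triangles for replicate 2. GABARAP and GABARAPL2 sit highest in all 4 libraries, MAP1LC3A and GABARAPL1 sit at or near 0, and OPTN and NBR1 show the widest gap between groups.

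Levels spanned a wide range. GABARAP was the highest of the 36 genes in both groups and GABARAPL2 the next, and in control ATG3, TAX1BP1 and SQSTM1 followed at 38.9, 27.8 and 26.9 RPKM. With TPA the genes after GABARAPL2 were SQSTM1 (46.7 RPKM), TAX1BP1 (43.9 RPKM) and NBR1 (40.6 RPKM), whose libraries overlapped. NBR1 moved from rank 18 to rank 5 and OPTN from rank 34 to rank 26.

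**Figure D2:**
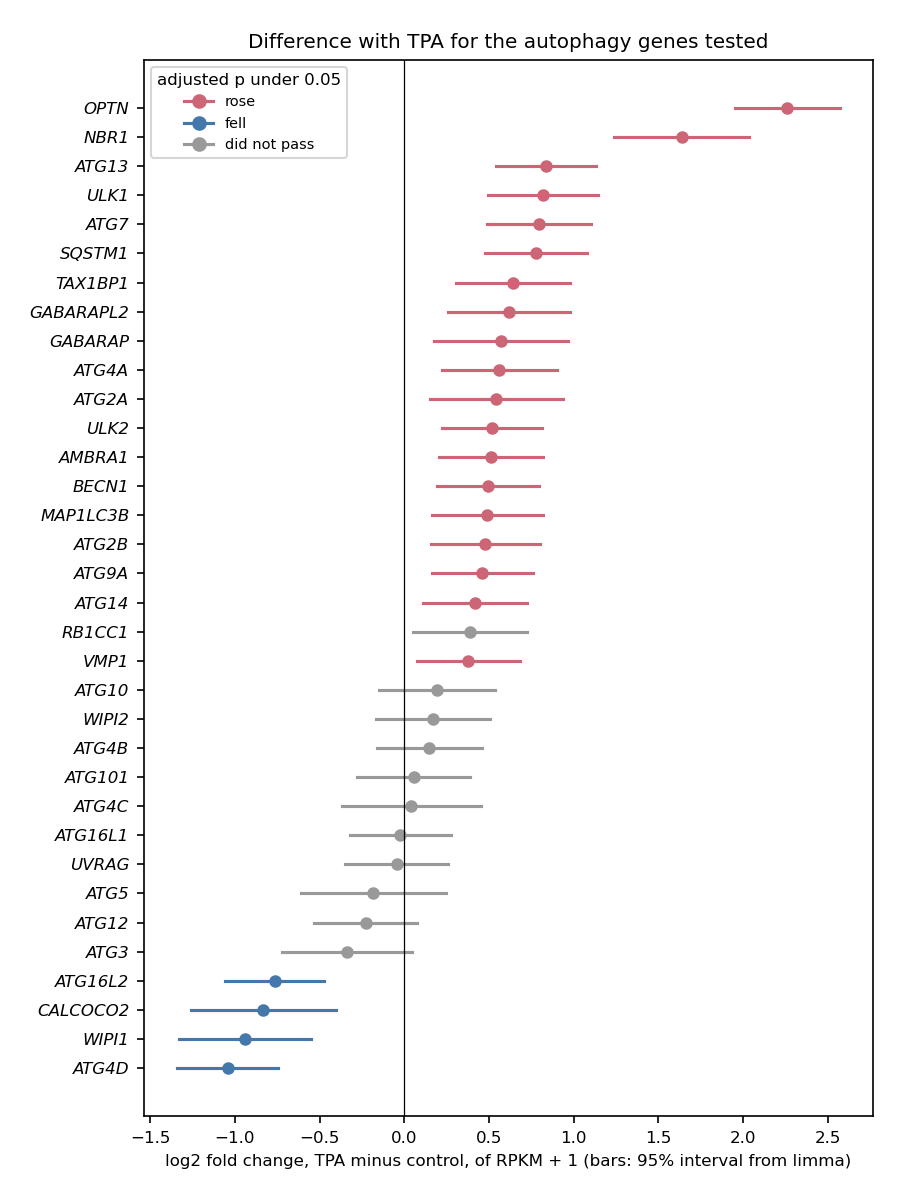
Log2 fold change (TPA minus control, of RPKM + 1, horizontal axis) of the 34 autophagy genes tested, with 95% intervals from limma; red genes rose, blue genes fell and grey genes did not pass. OPTN (2.26) and NBR1 (1.64) stand to the right of the rest, and ATG4D (-1.04) is lowest.

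The proximal promoters of 7 members are shown because they belong to the largest rises (OPTN, NBR1), to the cargo receptor that fell (CALCOCO2), or to other genes whose sequence there holds a searched motif (MAP1LC3B, ATG101, ATG14, ATG3). Sequences are from RefSeq on GRCh38.p14, 150 bases up to the base before the annotated start, written 5′ to 3′ along the gene, with motif matches in capitals.
OPTN (chr10:13099932-13100081, plus strand): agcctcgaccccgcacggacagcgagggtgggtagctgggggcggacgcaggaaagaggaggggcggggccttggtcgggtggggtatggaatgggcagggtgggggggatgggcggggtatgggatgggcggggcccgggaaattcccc
NBR1 (chr17:43170259-43170408, plus strand): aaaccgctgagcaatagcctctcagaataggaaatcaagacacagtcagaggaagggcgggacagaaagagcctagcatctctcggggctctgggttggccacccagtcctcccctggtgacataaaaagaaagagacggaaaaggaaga
CALCOCO2 (chr17:48830885-48831034, plus strand): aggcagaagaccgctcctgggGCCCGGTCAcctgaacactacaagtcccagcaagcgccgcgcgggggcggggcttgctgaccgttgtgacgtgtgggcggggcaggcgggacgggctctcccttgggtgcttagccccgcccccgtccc
MAP1LC3B (chr16:87392186-87392335, plus strand): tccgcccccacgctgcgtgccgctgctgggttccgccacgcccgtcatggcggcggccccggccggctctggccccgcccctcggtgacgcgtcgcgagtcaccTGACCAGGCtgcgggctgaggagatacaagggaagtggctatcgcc
ATG101 (chr12:52069828-52069977, plus strand): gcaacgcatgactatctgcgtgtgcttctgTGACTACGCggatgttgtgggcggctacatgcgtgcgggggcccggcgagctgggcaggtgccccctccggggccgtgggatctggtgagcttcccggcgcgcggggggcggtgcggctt
ATG14 (chr14:55411831-55411980, minus strand): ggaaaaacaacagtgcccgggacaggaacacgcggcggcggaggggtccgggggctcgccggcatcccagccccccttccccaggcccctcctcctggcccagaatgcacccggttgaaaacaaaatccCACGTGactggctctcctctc
ATG3 (chr3:112561963-112562112, minus strand): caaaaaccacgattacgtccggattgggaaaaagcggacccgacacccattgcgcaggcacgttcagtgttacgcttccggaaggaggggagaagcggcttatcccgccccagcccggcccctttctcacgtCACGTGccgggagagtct
RefSeq promoters, from 250 bases before to 50 bases after the start, were matched for 32 of the 36 genes by symbol, without ATG4D, MAP1LC3A, RB1CC1 and UVRAG. They were searched on both strands for 4 motifs: the TPA response element TGAGTCA, bound by AP-1, the E-box CACGTG, its longer form TCACGTGA bound by the TFEB family of lysosome and autophagy regulators, which contains the E-box, and the antioxidant response element core TGACNNNGC. TGAGTCA was in 0 of the 32 windows, where 4.92% of all 27305 promoters and 2.76% of those of tested genes held it. CACGTG was in 2 windows (ATG14 and ATG3) and in 7.43% of all promoters and 10.5% of those of tested genes. TCACGTGA was in 1 (ATG3, just past its start and outside the stretch shown) and in 1.04% of all promoters and 2.01% of those of tested genes. TGACNNNGC was in 3 (CALCOCO2, MAP1LC3B and ATG101) and in 13.6% of all promoters and 15.5% of those of tested genes. The capitals in the CALCOCO2 stretch are this core read on the opposite strand. OPTN and NBR1, with the largest rises, held none of the 4. These matches describe letters in these windows only.

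The initiation complex consists of the ULK kinases and their partners ATG13, ATG101 and FIP200, the product of RB1CC1. ULK1, the kinase gene with the higher level, had 13.7 and 11.4 RPKM in control and 22.9 and 22.7 RPKM with TPA. Its log2 fold change was 0.82 (SE 0.141, adjusted p = 0.00152 in limma). ATG13, which bridges the kinase and FIP200, had 8.92 and 8.34 RPKM in control and 16.1 and 16.3 RPKM with TPA, and rose (log2 fold change 0.84, SE 0.128, adjusted p = 8.20e-04 in limma). In both genes the TPA libraries lay close together and well above both controls. ULK2, the second ULK kinase, reached the filter only through its TPA libraries, so it was tested only because it was higher there. It had 0.528 and 0.605 RPKM in control and 1.33 and 1.16 RPKM with TPA (log2 fold change 0.52, adjusted p = 0.00909 in limma). ULK1 was thus the main ULK transcript in both groups, at 22.8 RPKM against 1.24 RPKM for ULK2 with TPA.

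The other members of that complex did not pass. ATG101, which stabilises ATG13, had 17.5 and 20.6 RPKM in control and 18.7 and 20.9 RPKM with TPA, and its groups overlapped (log2 fold change 0.06, 95% interval -0.28 to 0.39). RB1CC1, the scaffold gene, had 11.4 and 13.4 RPKM in control and 15.3 and 17.8 RPKM with TPA. Its groups did not overlap, and its adjusted p of 0.051 in limma lay at the threshold. RB1CC1 passed with the 5 RPKM filter (adjusted p = 0.0428), with median-of-ratios scaling (0.0313) and with quantile normalization (0.0186). It did not pass without any filter (0.0947). Its log2 fold change was 0.49 without TPA replicate 1 and 0.29 without TPA replicate 2. ULK2 no longer passed after quantile normalization (adjusted p = 0.143) or without control replicate 1 (0.0553).

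The class III phosphatidylinositol 3-kinase complex puts its lipid mark on the membrane through the kinase VPS34, with BECN1 as its core regulator and either ATG14 (autophagosome formation) or UVRAG (later endosomal steps) as the defining subunit. BECN1 had 24.0 and 25.3 RPKM in control and 34.1 and 36.2 RPKM with TPA, and rose (log2 fold change 0.49, SE 0.13, adjusted p = 0.0123 in limma). ATG14 had 2.47 and 2.75 RPKM in control and 4.04 and 3.60 RPKM with TPA, and rose by 0.42 (adjusted p = 0.0267 in limma). UVRAG had 6.19 and 6.69 RPKM in control and 5.91 and 6.53 RPKM with TPA. Its groups overlapped, and the 95% interval of its log2 fold change ran from -0.35 to 0.26. The ATG14 and UVRAG differences were not tested against each other.

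BECN1 lost its call only where a control replicate was left out, and the p-values of those fits cannot be set against the reported ones. Its log2 fold change was 0.46 without control replicate 1 and 0.53 without control replicate 2. ATG14 did not pass without any filter (adjusted p = 0.0839 in limma), after quantile normalization (0.0760) or without TPA replicate 1. The log2 fold change of ATG14 was 0.35 without TPA replicate 1, 0.36 without control replicate 1 and 0.47 without control replicate 2. BECN1 overlaps CNTD1, at 5.87 and 6.41 RPKM in control and 8.59 and 9.20 RPKM with TPA, and strand use in counting is not given in the sources used here. ATG14 overlaps FBXO34, which was at 14.96 and 18.2 RPKM in control and 10.8 and 13.8 RPKM with TPA, the opposite direction. The part of the overlapping genes in these values was not tested.

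Genes of membrane supply and lipid transfer mostly rose (60% of those tested, beside 28.4% of all genes tested). ATG9A encodes the scramblase carried by the vesicles that seed the autophagosome, and ATG2A and ATG2B encode the proteins that move lipid into it. ATG9A had 13.3 and 12.3 RPKM in control and 17.9 and 18.1 RPKM with TPA, and rose (log2 fold change 0.46, adjusted p = 0.0160 in limma). ATG2A had 5.26 and 4.02 RPKM in control and 8.15 and 6.30 RPKM with TPA (log2 fold change 0.54, adjusted p = 0.0248 in limma). ATG2B had 2.85 and 2.90 RPKM in control and 4.86 and 3.97 RPKM with TPA (log2 fold change 0.48, adjusted p = 0.0181 in limma). In each of these genes both TPA libraries were above both controls.

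The WIPI proteins bind the lipid mark and recruit the conjugation machinery. Of their 2 genes here 1 passed, where 58.2% of all genes tested did. WIPI1 fell from 15.7 and 14.6 RPKM in control to 6.24 and 8.76 RPKM with TPA (log2 fold change -0.94, SE 0.168, adjusted p = 0.00183 in limma). WIPI2, which recruits ATG16L1, had 21.5 and 22.5 RPKM in control and 22.5 and 27.5 RPKM with TPA, and did not pass (95% interval -0.17 to 0.51). The difference between WIPI1 and WIPI2 was not tested. WIPI1 overlaps PRKAR1A, which moved the other way (74.1 and 73.1 RPKM in control, 136 and 161 RPKM with TPA).

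The calls of ATG2A and ATG2B did not hold in every fit that kept all libraries, whereas that of WIPI1 did. ATG9A lost its call only where a control replicate was left out, and those fits cannot decide it. Its log2 fold change there was 0.52 without control replicate 1 and 0.41 without control replicate 2. ATG2A did not pass without any filter (adjusted p = 0.105 in limma) or after quantile normalization (0.0517). ATG2A also did not pass without TPA replicate 1, where its log2 fold change was 0.38, and that value was 0.39 without control replicate 2. ATG2B did not pass without any filter (0.0733), after quantile normalization (0.0587), or without control replicate 1 (0.0860), control replicate 2 (0.0781) or TPA replicate 1 (0.0581).

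Among the 7 ubiquitin-like conjugation genes, 5 did not pass, 1 rose and 1 fell (14.3% each way, beside 28.4% and 29.8% of all genes tested). ATG7, the E1-like enzyme that activates both ATG12 and the ATG8 proteins, had 12.2 and 12.0 RPKM in control and 20.6 and 23.0 RPKM with TPA. It rose (log2 fold change 0.80, SE 0.132, adjusted p = 0.00126 in limma). VGLL4, which overlaps ATG7, moved the same way (28.5 and 24.6 RPKM in control, 48.2 and 52.1 RPKM with TPA), and its part in the ATG7 value was not tested. ATG16L2, a relative of ATG16L1 that is thought to be dispensable for the canonical pathway, fell from 3.95 and 4.20 RPKM to 1.985 RPKM in both TPA libraries (log2 fold change -0.77, adjusted p = 0.00122 in limma). FCHSD2, which overlaps it, was also lower with TPA (13.9 and 15.8 RPKM in control, 5.43 and 8.72 RPKM with TPA), and this was not tested as a source of the ATG16L2 values.

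The remaining conjugation genes did not pass. ATG3, the E2-like enzyme for ATG8 proteins, had 35.9 and 41.8 RPKM in control and 26.8 and 34.8 RPKM with TPA, so both TPA libraries lay below both controls (log2 fold change -0.34, 95% interval -0.72 to 0.05). It did pass with median-of-ratios scaling (adjusted p = 0.0424 in limma), but not after quantile normalization (0.172). Its log2 fold change was -0.52 without TPA replicate 2 and -0.15 without TPA replicate 1. ATG12, the ubiquitin-like protein joined to ATG5, was also lower in both TPA libraries (11.3 and 12.3 against 9.52 and 10.3 RPKM, adjusted p = 0.174 in limma). ATG5, its acceptor, ATG10, the E2-like enzyme for ATG12, and ATG16L1, the subunit that places the complex on the membrane, had overlapping groups, with means of 6.69, 4.57 and 5.16 RPKM in control and 5.82, 5.40 and 5.06 RPKM with TPA. ATG5 was read by a non-coding RefSeq transcript of the gene, as was ATG4D. The same holds for HEXA and TEX264, named below among further genes of the pathway.

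The ATG8 family is what the conjugation system attaches. All 3 of its genes in the fixed list that reached the filter rose, where 28.4% of all genes tested did. MAP1LC3B2, a further family gene outside that list, did not pass. GABARAP had 110.2 and 123 RPKM in control and 149 and 200 RPKM with TPA, and rose (log2 fold change 0.57, SE 0.171, adjusted p = 0.0213 in limma). GABARAPL2 (GATE-16) had 50.9 and 54.8 RPKM in control and 72.6 and 91.8 RPKM with TPA, and rose by 0.62 (SE 0.156, adjusted p = 0.00977 in limma). MAP1LC3B, the gene of the LC3 form used as the standard marker of autophagosomes, had 22.4 RPKM in both controls and 29.3 and 34.7 RPKM with TPA, and rose by 0.49 (SE 0.141, adjusted p = 0.0174 in limma). In all 3 genes TPA replicate 2 was above TPA replicate 1, and both were above the controls.

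The other ATG8 genes of the fixed list were close to absent from these libraries. MAP1LC3A was listed at 0.023 and 0.024 RPKM in control and 0.024 and 0.076 RPKM with TPA. GABARAPL1 was listed at 0 in both controls and at 0.035 and 0.013 RPKM with TPA. Neither reached the filter, and neither was tested. Within the family, without MAP1LC3B2, GABARAP made up 59.4% to 61.3% of the summed RPKM, GABARAPL2 27.4% to 28.9% and MAP1LC3B 10.6% to 12.2% across the 4 libraries. The sum was 192 ± 11.5 RPKM in control and 289 ± 53.5 RPKM with TPA (mean ± SD, n = 2 libraries), with nearly the same make-up in each library.

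MAP1LC3B2, a near-identical copy of MAP1LC3B, was listed at a mean of 6.78 RPKM in control and 8.24 RPKM with TPA and did not pass, and how reads shared by these genes were assigned is not given in the sources used here. GABARAP did not pass without any filter (adjusted p = 0.0822 in limma). Without TPA replicate 2, neither MAP1LC3B (log2 fold change 0.37) nor GABARAP (0.36) passed. GABARAPL2 lost its call only without control replicate 1, a fit that cannot decide it, where its log2 fold change was 0.57. In that fit the log2 fold change was 0.49 for both MAP1LC3B and GABARAP.

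**Figure D3:**
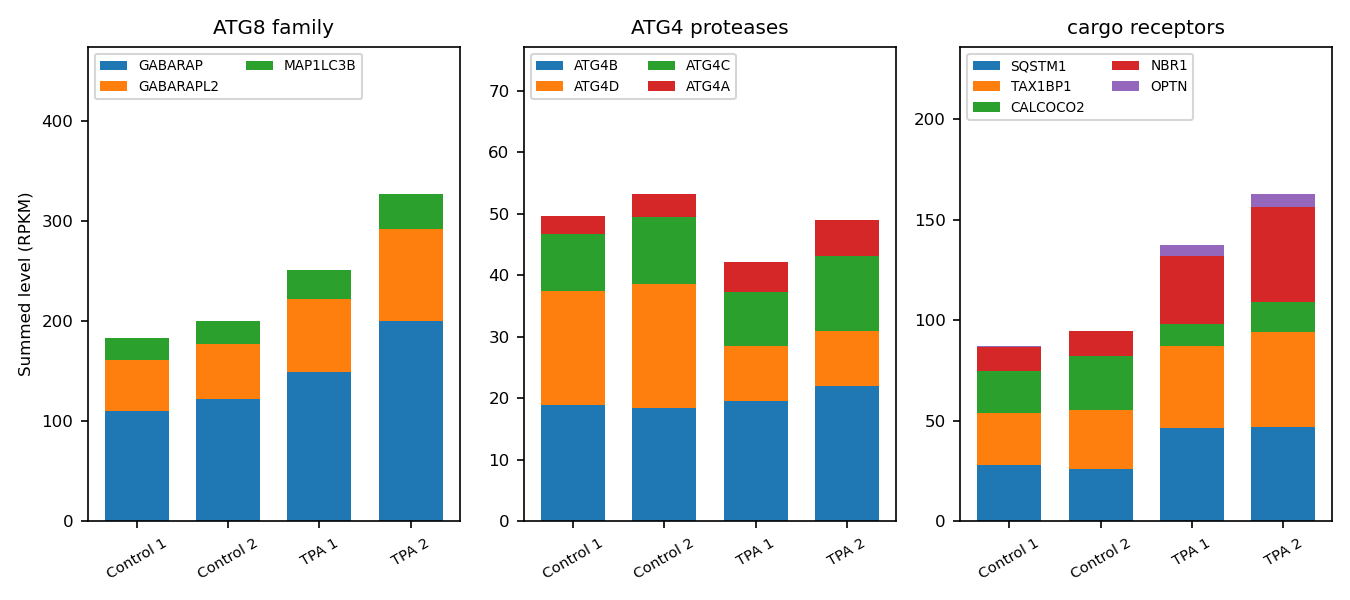
Level in RPKM (vertical axis, stacked from 0) of the ATG8 family, the ATG4 proteases and the cargo receptors in each control and TPA library. MAP1LC3A and GABARAPL1, at or near 0, and MAP1LC3B2, which is outside the fixed list, are left out. The ATG8 stack grows with its 3 parts in nearly fixed shares, the ATG4D segment shrinks, and the NBR1 segment grows from 13.96% and 12.9% to 24.7% and 29.0% of the receptor sum.

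The ATG4 proteases trim new ATG8 proteins and later release them from membranes, and their genes went in both directions. ATG4D fell from 18.6 and 20.1 RPKM to 8.89 RPKM in both TPA libraries, the largest fall among the autophagy genes (log2 fold change -1.04, SE 0.129, adjusted p = 2.59e-04 in limma). ATG4A had 2.96 and 3.69 RPKM in control and 4.98 and 5.75 RPKM with TPA, and rose by 0.56 (adjusted p = 0.0116 in limma). ATG4B, the most active protease of the family, did not pass, with 18.9 and 18.4 RPKM in control and 19.6 and 22.02 RPKM with TPA. ATG4C had overlapping groups (10.1 ± 1.21 and 10.5 ± 2.49 RPKM, mean ± SD, n = 2 libraries). ATG4D thus went from 37.5% and 37.9% of the summed protease RPKM in control to 21.1% and 18.2% with TPA, and ATG4B from 38.0% and 34.6% to 46.4% and 45.0%.

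KRI1, which overlaps ATG4D, was also lower with TPA (24.3 and 25.2 RPKM in control, 15.3 and 15.6 RPKM with TPA), and its part in the ATG4D values was not tested. The ATG4A call was lost without any filter (adjusted p = 0.0609), without control replicate 1 (0.116) and without TPA replicate 2 (0.0509).

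The cargo receptors, which link ubiquitinated or damaged material to the ATG8 proteins, held the largest changes. All 5 passed, where 58.2% of all genes tested did. OPTN (optineurin), known for its part in the clearance of mitochondria and bacteria, had 0.469 and 0.423 RPKM in control and 5.49 and 6.40 RPKM with TPA. The mean was 13.3-fold higher with TPA, and the log2 fold change of RPKM + 1 was 2.26 (SE 0.134, adjusted p = 4.73e-06 in limma). OPTN reached the filter only through its TPA libraries, so it was tested only because it was high there. NBR1, a receptor for ubiquitinated proteins and peroxisomes, had 12.2 RPKM in both controls and 34.0 and 47.2 RPKM with TPA. It rose by 1.64 (SE 0.172, adjusted p = 1.05e-04 in limma), with a ratio of means of 3.33. In both genes the gap between groups was larger than the gap between the TPA libraries.

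SQSTM1 encodes p62, the best known receptor for ubiquitinated proteins and itself a substrate of autophagy. It had 28.0 and 25.7 RPKM in control and 46.4 and 47.0 RPKM with TPA, and rose (log2 fold change 0.78, SE 0.131, adjusted p = 0.00135 in limma). TAX1BP1, a receptor that also acts in NF-κB signalling, had 25.8 and 29.7 RPKM in control and 40.7 and 47.1 RPKM with TPA, and rose by 0.64 (SE 0.146, adjusted p = 0.00605 in limma). CALCOCO2 (NDP52), a relative of TAX1BP1 that acts on bacteria and mitochondria, went the other way. It fell from 20.9 and 26.8 RPKM to 11.0 and 14.99 RPKM (log2 fold change -0.83, SE 0.186, adjusted p = 0.00559 in limma). Its replicates lay further apart than those of SQSTM1, but both TPA libraries were below both controls.

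Summed over the 5 receptors the level was 91.1 ± 5.30 RPKM in control and 150.1 ± 17.8 RPKM with TPA (mean ± SD, n = 2 libraries), and the make-up shifted. NBR1 went from 13.96% and 12.9% of the sum in control to 24.7% and 29.0% with TPA, OPTN from 0.537% and 0.446% to 3.99% and 3.94%, and CALCOCO2 from 23.9% and 28.3% to 8.01% and 9.21%. SQSTM1 (27.1% to 33.7%) and TAX1BP1 (28.9% to 31.3%) kept similar shares over the 4 libraries. The genes MGAT4B and MRNIP overlap SQSTM1 and were higher with TPA too. MGAT4B had 23.3 and 21.9 RPKM in control and 71.6 and 79.2 RPKM with TPA, and its part in the SQSTM1 values was not tested. TAX1BP1 lost its call only without control replicate 1, a fit that cannot decide it, where its log2 fold change was 0.55. The other 4 receptor genes passed in every fit.

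AMBRA1, a scaffold that promotes Beclin 1 activity and the turnover of cyclin D, had 8.95 and 7.98 RPKM in control and 12.9 and 12.1 RPKM with TPA, and rose (log2 fold change 0.51, SE 0.133, adjusted p = 0.0114 in limma). VMP1, a scramblase of the endoplasmic reticulum needed at the site of autophagosome formation, had 14.04 and 14.4 RPKM in control and 17.8 and 19.8 RPKM with TPA, and rose by 0.38 (SE 0.132, adjusted p = 0.0384 in limma). The gene of the microRNA miR-21 lies at the end of VMP1, and it was listed at 0 except for 0.306 RPKM in TPA replicate 1. AMBRA1 lost its call only without control replicate 2, a fit that cannot decide it, where its log2 fold change was 0.44. VMP1 did not pass without TPA replicate 2, where its log2 fold change was 0.31. The log2 fold change of VMP1 was 0.36 without control replicate 1 and 0.40 without control replicate 2.

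The same fit was read for 85 further genes of the pathway, in 7 lists, of which 75 were tested: 31 rose and 10 fell, beside the 28.4% and 29.8% of all genes tested. Their median log2 fold change was 0.24. Without control replicate 2 the counts were 17 that rose and 5 that fell, and without TPA replicate 1 they were 32 and 6. The 4 partners of the lipid kinase complex all passed, where 58.2% of all genes tested did. RUBCN (Rubicon), which restrains the pathway, rose from 1.87 and 1.93 to 4.01 and 3.46 RPKM, and PIK3C3, the gene of VPS34 itself, from 11.5 and 12.4 to 16.5 and 18.2 RPKM. PIK3R4, the VPS15 gene, fell from 10.5 and 11.1 to 8.68 and 7.80 RPKM (adjusted p = 0.0474 in limma). Its call was lost without any filter (0.0686), after quantile normalization (0.0595), and without any 1 of the 4 libraries (adjusted p = 0.176, 0.295, 0.0508 and 0.143 without control replicates 1 and 2 and TPA replicates 1 and 2). PIK3C3 lost its call only where a control replicate was left out, and those fits cannot decide it. Its log2 fold change was 0.45 without control replicate 1 and 0.56 without control replicate 2.

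Of 23 tested genes of mTORC1, the TSC complex and AMPK, the kinase that senses low energy, 6 rose and 6 fell, 26.1% each way, near the 28.4% and 29.8% of all genes tested. MTOR fell from 34.2 and 34.8 RPKM to 18.5 and 18.1 RPKM (log2 fold change -0.88, adjusted p = 5.89e-04 in limma). RRAGD, a Rag GTPase that brings mTORC1 to the lysosome, fell from 10.3 and 10.4 RPKM to 4.63 and 5.09 RPKM. The AMPK regulatory subunit genes PRKAG1 (11.4 and 14.2 to 31.7 and 41.1 RPKM) and PRKAG2 (1.87 and 2.20 to 3.88 and 4.999 RPKM) rose. The genes named are those with the smallest p in each direction. Among all that passed, genes of AMPK went both ways, as did genes of mTORC1.

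Of 13 tested fusion genes, 6 rose (46.2%, beside 28.4% of all genes tested) and 0 fell (beside 29.8%) in limma, and 8 of the 13 had an unadjusted p under 0.05 (61.5%), close to the 62.5% of all genes tested. TECPR1, which binds the ATG12 to ATG5 conjugate, rose from 2.37 and 2.46 to 5.97 and 6.63 RPKM, and VPS39, a tethering subunit, from 14.7 and 13.3 to 22.6 and 23.4 RPKM. Of 13 tested lysosome genes, 8 rose (61.5%) and 0 fell in limma, and 9 had an unadjusted p under 0.05 (69.2%). The proton pump gene ATP6V1A rose from 14.3 and 14.1 to 55.1 and 55.4 RPKM, and HEXA, a lysosomal hexosaminidase gene, from 13.3 and 12.8 to 49.1 and 46.5 RPKM. Of 5 tested genes of the MiT/TFE factors and the folliculin complex, 2 rose (40%) and 1 fell (20%), beside 28.4% and 29.8% of all genes tested. TFE3 rose from 6.91 and 5.68 to 15.2 and 15.9 RPKM, and TFEB from 18.6 and 15.4 to 28.7 and 24.7 RPKM, while FNIP2, a partner of folliculin, fell from 6.17 and 6.98 to 3.84 and 4.07 RPKM. TFEB and FNIP2 lost their calls only without control replicate 2, a fit that cannot decide them, where their log2 fold changes were 0.49 and -0.53.

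Among 13 tested receptors for whole organelles, 5 rose (38.5%) and 2 fell (15.4%), beside 28.4% and 29.8% of all genes tested. An unadjusted p under 0.05 in limma was found for 61.5% of them, close to the 62.5% of all genes tested. CCPG1 and TEX264, receptors for the endoplasmic reticulum, rose from 5.13 and 6.91 to 10.7 and 13.5 RPKM and from 27.7 and 28.7 to 40.5 and 52.8 RPKM. FAM134B, another receptor of that organelle, fell from 9.82 and 10.1 to 4.03 and 4.84 RPKM. BNIP3, a mitochondrial receptor that hypoxia induces, fell from 17.7 and 10.1 to 5.59 and 4.88 RPKM, with its controls far apart. Of 4 tested relatives of ATG9, WIPI and the ATG8 family, 1 rose (25%, beside 28.4% of all genes tested) and 3 did not pass. The gene that rose was WDR45 (WIPI4), which works with ATG2, from 5.28 and 5.27 to 18.7 and 19.8 RPKM (log2 fold change 1.69, adjusted p = 1.71e-05 in limma).

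**Figure D4:**
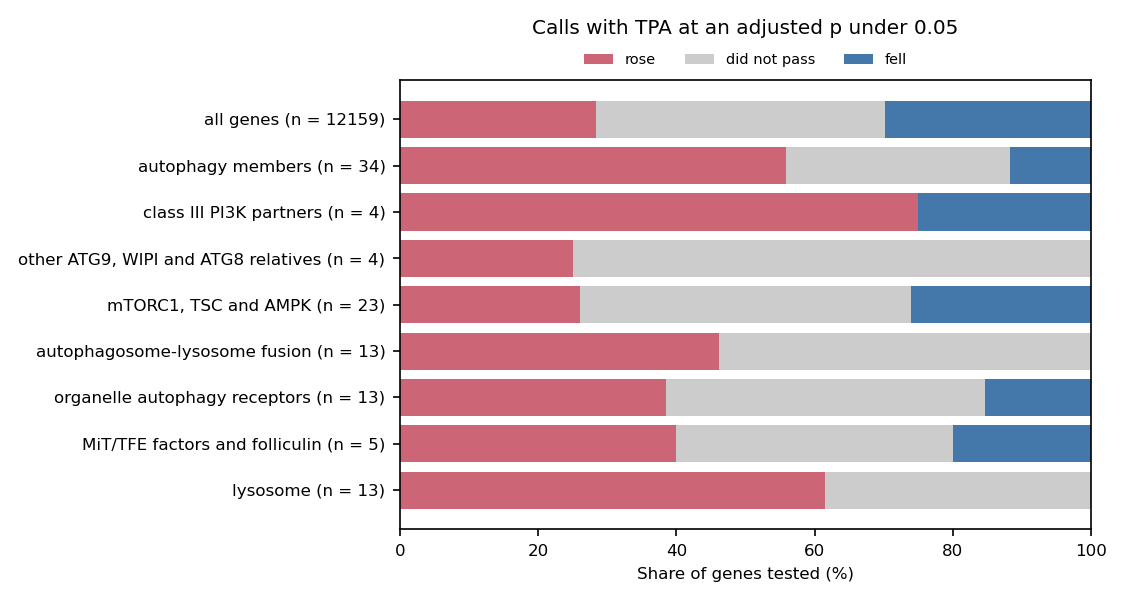
Share of the genes tested (horizontal axis, percent) that rose (red), did not pass (grey) or fell (blue) at an adjusted p under 0.05 in limma, for all 12159 genes, the 34 autophagy genes and the 7 further lists, with the number tested in parentheses. The red share is 28.4% for all genes, 55.9% for the autophagy genes and 61.5% for the lysosome list, and the fusion and lysosome lists have no blue share.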

How the data were processed

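RNA was extracted from 697 cells in 4 samples (2 control, 2 TPA), as the titles in the labels group and number them. The deposited table holds RPKM values, 1 for each gene and library, per the file headers. The submitters' processing notes name the build hg19 and the tools HOMER, SAMtools, TopHat, Bowtie 1.12 and CASAVA 1.8, without their roles. The annotation and strand setting are not given in the sources used here, and each gene is read by 1 RefSeq accession. Depth relative to control replicate 1 came from the most common ratio of low values (0.03 to 0.15 RPKM in both libraries); the number of reads is unknown, so no counting interval is given.

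Members were matched by symbol, and RETREG1 of the other lists through its older symbol FAM134B. A gene first placed in the other lists is not reported here. Genes that reached 1 RPKM in 2 or more of the 4 libraries were fitted on log2(RPKM + 1) with limma 3.58.1 in R 4.3.3. The contrast was TPA minus control, moderated with a trend on mean level (5.88 prior and 2 residual degrees of freedom), with two-sided p-values and Benjamini-Hochberg adjustment over all genes tested. The script was tested on simulated data. The members and lists were chosen with earlier results of these data known, so no test of a list is given. All members are named, and from each other list at most the 2 genes with the smallest p in each direction that passed. Single comparisons could not use permutation, which with 2 against 2 libraries gives a two-sided p of 0.333 at the lowest. Alternatives tried were pseudocounts of 0.1 and 0.5 RPKM, no filter and a 5 RPKM filter, limma without the trend, quantile normalization, median-of-ratios scaling, the replicate number as a block, and each library left out. Figures were drawn with matplotlib 3.10.9.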

Additional observations from a re-analysis of the deposited data

How the results depend on the processing

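The counts over all genes and the number of autophagy genes that fell stayed within 1.5 times their reported values in every alternative. In every fit that kept all 4 libraries and tested the gene, ULK1, ATG13, ATG7, SQSTM1, NBR1 and OPTN rose. WIPI1, ATG16L2, ATG4D and CALCOCO2 fell in every such fit, and ATG16L2 did not reach the 5 RPKM filter. OPTN reached the 1 RPKM and 5 RPKM filters only through its TPA libraries. BECN1, ATG9A, MAP1LC3B, GABARAPL2, TAX1BP1, AMBRA1 and VMP1 also rose in every fit that kept all libraries. Of these, MAP1LC3B and VMP1 did not pass without TPA replicate 2. The others lost their calls only where a control replicate was left out, and those fits cannot decide them. ULK2, RB1CC1, ATG14, ATG2A, ATG2B, ATG3, GABARAP and ATG4A changed their call among fits that kept all libraries. The remaining autophagy genes tested passed in none. With 1 library left out, the autophagy genes that rose numbered 8 to 17 and their median log2 fold change was 0.36 to 0.42, while 17 to 32 of the other pathway genes rose and 5 to 8 fell. In each of these fits the lone library of a group is assumed to vary like the others. No setting turned the direction of an autophagy gene that passed. Among genes that did not pass, the log2 fold change with 1 library left out ran from -0.0596 to 0.17 for ATG101, from -0.106 to 0.0171 for UVRAG, from -0.409 to 0.0405 for ATG5, from -0.0694 to 0.0244 for ATG16L1 and from -0.18 to 0.264 for ATG4C, and so took both signs. The cause was not tested.

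The replicate numbers are shared between groups, but no label says that they mark a pair. Over all genes tested, deviations of same-numbered libraries from their group means correlated at 0.36. With the replicate number as a block, 20 autophagy genes rose and 5 fell, RB1CC1 (adjusted p = 0.00796) and ATG3 (adjusted p = 0.0120) being the additions in limma, and 3946 of all genes rose and 4288 fell. TPA replicate 2 was above TPA replicate 1 for 26 of the 34 autophagy genes, with a median difference of 0.15 on the log2 scale beside 0.13 over all genes tested, and control replicate 2 was above control replicate 1 for 24, with 0.07 beside 0.05. The unknown read number and exposure time limit what small differences can show.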

Other observations

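By the cytogenetic bands of the deposited table, 7 of the 36 autophagy genes lie on chromosome 17. Of these 5 rose (ULK2, BECN1, NBR1, GABARAP and VMP1) and 2 fell (WIPI1 and CALCOCO2), beside 28.4% and 29.8% of all genes tested. The share among all genes of that chromosome was not computed. ULK2 reached the filter only through its TPA libraries, and the calls of ULK2 and GABARAP did not hold in every fit that kept all libraries. NBR1, which rose, and BECN1 share the band 17q21.31, and CALCOCO2, which fell, lies in the next, 17q21.32. ATG13 and AMBRA1 share the band 11p11.2 and both rose, from 8.63 ± 0.416 to 16.2 ± 0.148 RPKM and from 8.47 ± 0.684 to 12.5 ± 0.61 RPKM (mean ± SD, n = 2 libraries).

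The 32 member promoters with a sequence ranged from 26.4% to 79.6% in G and C over the 250 bases before the start, with a median of 62.6%. Among all genes tested with a promoter sequence, TGAGTCA was in 109 of 2548 windows of genes that rose (4.28%) and 59 of 2700 windows of genes that fell (2.19%). It was in 0 of the 19 windows of autophagy genes that rose, a number of windows too small to tell 0 from a share of 4.28%.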
